A study of Oryza sativa with 12 samples.

Results

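The submergence response of a rice leaf transcript is its level under water minus its level in controls. That response was compared between FR13A and Goda Heenati, 2 genotypes of rice (Oryza sativa), as the FR13A response minus the Goda Heenati response (the interaction of genotype and submergence), at every locus measured. All 12 arrays of the series entered the comparison, with the slide as a block, and 22744 loci were tested. The series holds 4 groups of 3 biological replicates: FR13A submerged, FR13A control, Goda Heenati submerged and Goda Heenati control. Seedlings aged 14 d spent 3 d under water 70 cm deep, and controls stood in a tank that held no water. When submergence began, the shoot tips lay 52.7 ± 2.3 cm below the surface in FR13A and 45.9 ± 2.9 cm in Goda Heenati (the kind of error is not given), so genotype and depth of water over the shoot cannot be told apart. Each sample pooled leaves of about 20 plants, each genotype is 1 cultivar, and no group carries a transgene or mutant allele by its labels.

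A flooded shoot is cut off from air, so ethylene builds up in it and oxygen can fall. Rice answers with fermentation enzymes, breakdown of sucrose and starch, and gibberellin-driven elongation. FR13A is the landrace in which the submergence tolerance locus SUB1, a cluster of ethylene response factor genes, was described. A locus whose transcript answers water alike in both genotypes has a difference near 0, however strong the response, and a locus that only one of them moves has a large one.

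Levels are the log2 processed signal of the locus' brightest probe minus the 75th percentile of its array, and a difference of 1 is 2-fold. Levels are not compared between loci. Per array, 30265 to 34245 of 42418 probes lay well above background. On the arrays of slide 1, whose scan fell on a separate day, 1837 to 2406 probes were saturated, against 0 on slides 2 and 3. Each slide held 1 array of every group, always at the same position for a group, so group and position on the slide cannot be told apart. The leaf marker CAB2R (Os01g0600900), a chlorophyll-binding protein, was well above background on all 12 arrays at levels from 2.59 to 7.20. The shoot meristem gene OSH15 (Os07g0129700) was so on 0 arrays and the meristem gene OSH1 (Os03g0727000) on 7. The root markers LSI1 (Os02g0745100), IRT1 (Os03g0667500) and PT6 (Os08g0564000) were so on 12 arrays and PT11 (Os01g0657100) on 9. These markers alone therefore do not establish the tissue. In pooled leaves, fewer cells of a type and less RNA per cell cannot be told apart.

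The responses of the genotypes differed at 87 loci. At 39 loci the response was higher in FR13A and at 48 it was lower (limma adjusted p under 0.05 and at least 2-fold). These are 0.383% of the loci tested, 0.171% in the first direction and 0.211% in the second. The submergence response itself was called at 6422 loci in FR13A (28.2%) and at 6098 in Goda Heenati (26.8%). Across all loci the difference had an SD of 0.69 and a median of -0.02, and the responses had SDs of 1.41 and 1.43, all on the log2 scale. For 95% of loci the difference lay between -1.46 and 1.42. Called differences ran from 1.33 to 7.25 in size, with a median of 3.17. A difference of at least 3 was measured at 144 loci, of which 48 were called.

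**Figure D1:**
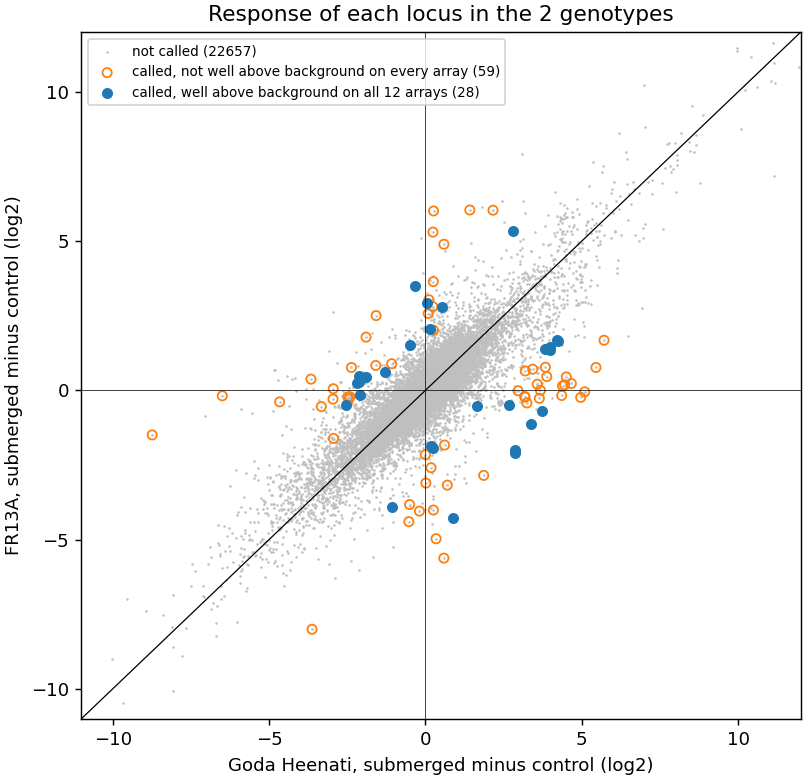
Submergence response of each of 22744 loci, Goda Heenati on the x axis and FR13A on the y axis, both as submerged minus control (log2). Grey points were not called, open orange circles are the 59 called loci that were not well above background on every array, and blue points are the 28 that were; points far from the diagonal are loci whose responses differed.

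The 87 calls depended on which arrays were present. Without slide 1, limma called 11 loci. Without slide 2 or slide 3 it called 0, with 1012 and 1719 loci at an unadjusted p under 0.05, against 1893 (8.32%) with all slides. Leaving out single arrays gave 46, 28 and 53 calls without FR13A control replicates 1, 2 and 3, and 36 and 15 without FR13A submerged replicates 1 and 2. It gave 29, 35 and 47 without Goda Heenati control replicates 1, 2 and 3, and 36 and 31 without Goda Heenati submerged replicates 1 and 2. The calls numbered 80 without FR13A submerged replicate 3 and 101 without Goda Heenati submerged replicate 3. Of these, 56 and 59 were among the 87. Without the block 21 loci were called, all of them among the 87.

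Which genotype moved differed from locus to locus. At 13 loci only the FR13A response was called, as a rise, and at 14 only as a fall (4.55% and 3.74% of all loci tested). At 23 loci only the Goda Heenati response was called, as a rise, and at 19 only as a fall (3.73% and 3.13% of all). Both responses were called in the same direction at 13 loci and in opposite directions at 5. Over all loci tested, 4529 responded in both genotypes in the same direction and 9 in opposite directions, so 5 of those 9 are among the 87. The genotypes differed in controls alone at 30 of the 87, under submergence alone at 31, and in both at 26, against 2.68%, 4.91% and 7.99% of all loci. A locus that is called has to differ somewhere, so these counts describe the calls. They lay farther apart under water than in controls at 45 loci and closer at 42, and at 36 the sign of the genotype difference changed. Over all loci these shares were 59.4%, 40.6% and 29.3%.

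Much of the list lies near the detection limit. Of the 87 loci, 28 were well above background on all 12 arrays, which is 0.155% of the 18100 tested loci of that kind. The 5686 loci with the lowest mean level hold 65 of the 87 and the 5686 with the highest hold 2. At 21 called loci only 1 group had any array well above background. In 8 of them that group was submerged Goda Heenati (of 17 such loci tested), in 5 submerged FR13A (of 28), in 5 Goda Heenati controls (of 18) and in 3 FR13A controls (of 14). A locus that passed the filter through 1 group alone had to differ, so these counts describe the list and support nothing. At 79 of the 87 called loci (90.8%) only 1 probe was kept, against 71.3% of all loci tested. At the other 8 further probes were kept, and all 9 of these gave the sign of the call. The like share over all loci was not counted. At 4 of the 8 loci a further probe was called as well.

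No table used here pairs the loci with gene names, so 2 loci in each direction are described by identifier, those with the smallest adjusted p among the 28. For the second locus in the lower direction Os07g0421900 tied with Os08g0414700 (limma adjusted p = 0.0122 for both), whose unadjusted p was smaller, 7.57e-06 against 9.81e-06. Os08g0414700 is described with its like loci. Os01g0778600, on chromosome 1 by its identifier, had levels of -2.72, -1.71 and -2.67 in FR13A controls and 1.25, 1.55 and 0.63 in submerged FR13A on slides 1, 2 and 3. In Goda Heenati its levels were -4.20, -3.86 and -4.31 in controls and -4.80, -4.09 and -4.51 under water. The submerged FR13A arrays stood above all others and the Goda Heenati groups overlapped. The FR13A response was 3.51 and the Goda Heenati response -0.34, a difference of 3.85 ± 0.29 (SE; limma adjusted p = 0.00312), with 4.56, 3.49 and 3.5 on the 3 slides.

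Os01g0217500, also on chromosome 1, started lower in FR13A than in Goda Heenati and ended higher. Its levels were -4.93, -4.39 and -3.94 in FR13A controls and -1.96, -1.25 and -1.29 in submerged FR13A. In Goda Heenati they were -3.35, -2.22 and -2.45 in controls and -2.87, -2.84 and -2.17 under water. The FR13A groups did not overlap, and those of Goda Heenati did. The difference was 2.88 ± 0.30 (limma adjusted p = 0.0122, or 0.0884 without the block), from responses of 2.92 and 0.04. The genotype difference went from -1.75 in controls (limma adjusted p = 0.000678) to 1.13 under submergence (0.00705).

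Os12g0202700 on chromosome 12 was high in FR13A controls alone. There its levels were 0.04, -0.58 and -0.39, and in submerged FR13A they were -4.04, -5.41 and -4.31. Goda Heenati had -4.01, -4.59 and -4.99 in controls and -3.15, -3.72 and -4.02 under water. The FR13A response was -4.28 and the Goda Heenati response 0.90, a difference of -5.18 ± 0.38 (limma adjusted p = 0.00312). On the submerged FR13A arrays the locus had dropped to about the levels of Goda Heenati.

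Os07g0421900 on chromosome 7 went opposite ways. Its levels in FR13A were -3.40, -3.80 and -3.23 in controls and -4.53, -5.86 and -6.31 under water. In Goda Heenati they were -1.54, -2.35 and -2.77 in controls and 0.95, 1.08 and -0.14 under water. Neither genotype's groups overlapped. FR13A fell by 2.09 and Goda Heenati rose by 2.85 on the log2 scale (limma adjusted p = 0.00282 and 0.000656), and the difference was -4.94 ± 0.53 (limma adjusted p = 0.0122). The FR13A level minus the Goda Heenati level was -1.26 in controls and -6.20 under water, on the log2 scale.

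**Figure D2:**
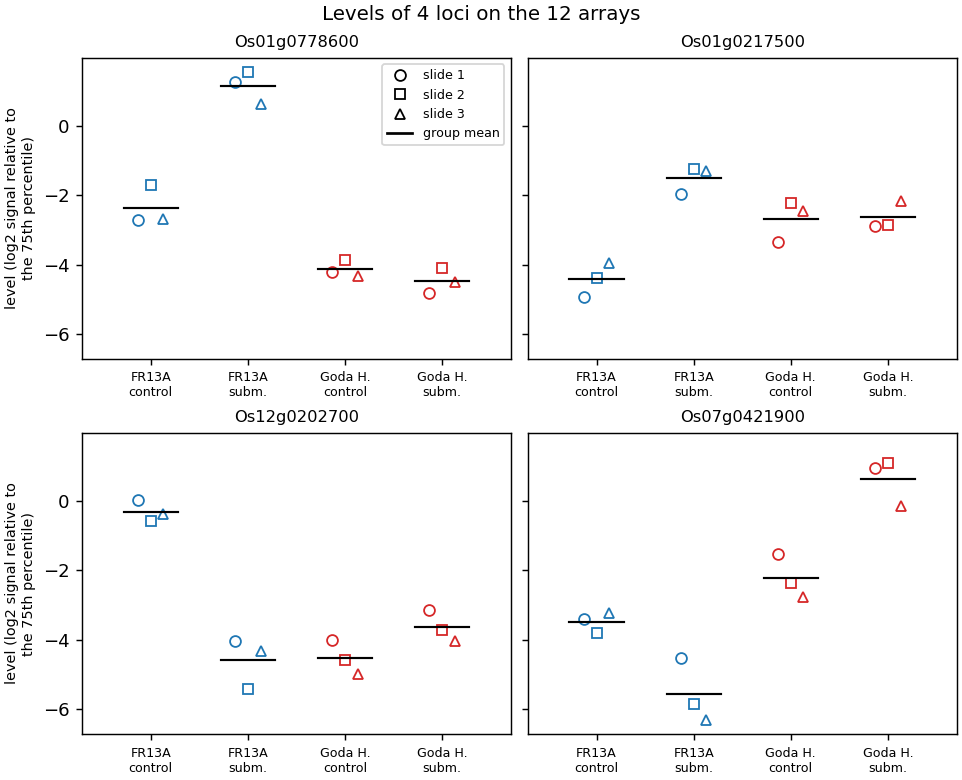
Levels of 4 loci (log2 signal minus the array's 75th percentile) on the 12 arrays; circles, squares and triangles are slides 1, 2 and 3, blue is FR13A, red is Goda Heenati and bars are group means. Os01g0778600 is highest in submerged FR13A, Os12g0202700 in FR13A controls, and the responses of Os07g0421900 run in opposite directions.

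These 4 calls were kept in every fit that left out 1 array, except those of Os01g0217500 and Os07g0421900 without FR13A submerged replicate 2 (limma adjusted p = 0.0525 for both). With a whole slide left out none of the 4 passed, and their limma adjusted p ran from 0.0703 to 0.381.

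The other 4 loci with opposite responses were singled out after their values were seen. Os09g0269900 on chromosome 9 had the smallest adjusted p of all loci, with a difference of -4.71 ± 0.24 (limma adjusted p = 0.000593). Its levels were -3.70, -4.05 and -4.27 in FR13A controls and -6.72, -6.99 and -6.86 in submerged FR13A. In Goda Heenati they were -8.48, -8.49 and -8.32 in controls and -6.24, -6.66 and -6.79 under water. The FR13A level minus the Goda Heenati level was 4.42 in controls and -0.29 under water, on the log2 scale. No Goda Heenati control array was well above background there, and 1 submerged FR13A and 2 submerged Goda Heenati arrays were. The locus entered the test through FR13A controls alone, so a genotype difference there was built in. In controls FR13A was at least 16.7-fold higher, and Goda Heenati rose at least 2.83-fold.

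Os11g0311600 on chromosome 11 fell by 1.98 in FR13A and rose by 2.87 in Goda Heenati, a difference of -4.85 ± 0.59 (limma adjusted p = 0.0178). Os07g0293000 had a difference of 4.08 ± 0.52 (limma adjusted p = 0.0211), with responses of 2.51 and -1.57. No FR13A control array was well above background for it, and FR13A rose at least 5.53-fold. Os11g0490600 had a difference of 3.68 ± 0.47 (limma adjusted p = 0.0217), with responses of 1.79 and -1.90, and its second probe gave 2.71. Os11g0311600, Os07g0293000 and Os11g0490600 were not called without the block (limma adjusted p of 0.0709, 0.0709 and 0.102), and their calls were lost in 12 of 27, 14 of 26 and 13 of 26 alternative settings.

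Called loci came from all 12 chromosomes, from 4 on chromosome 8 to 12 on chromosome 1, and by their identifiers 2 pairs were next to each other. Os11g0694000 and Os11g0694100 were both high in FR13A controls alone. Os11g0694000 had levels of -2.02, -1.19 and -1.37 there and -6.56, -7.10 and -5.82 in submerged FR13A. Os11g0694100 went from -0.45, -1.23 and -0.74 to -5.00, -8.12 and -6.16. No Goda Heenati array was well above background for either, with levels from -10.15 to -8.18. The controls stood at least 173-fold apart at Os11g0694100. The differences were -5.31 ± 0.54 and -6.21 ± 0.95 (limma adjusted p = 0.0122 and 0.044). The call of Os11g0694100 was lost in 20 of 26 alternative settings, no block among them (limma adjusted p = 0.0548), and that of Os11g0694000 in 5 of 26. Both loci entered the test through FR13A controls alone. Since Goda Heenati gave no measured signal in either treatment, a fall there could not be seen.

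The second pair is Os12g0202700 and Os12g0202800. Os12g0202800 had levels of 1.44, 0.56 and 0.53 in FR13A controls and -7.99, -6.62 and -6.86 under water. In Goda Heenati it had -3.59, -3.54 and -4.04 in controls and -6.99, -7.10 and -7.94 under water. The transcript fell in both genotypes, in FR13A from a level that was 4.57 higher on the log2 scale. Its difference was -4.38 ± 0.58 (limma adjusted p = 0.0242), a call lost in 13 of 26 alternative settings. No submerged Goda Heenati array was well above background, so that fall is a bound of at least 12.3-fold and the difference of the falls is not fully measured.

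Some called loci shared their profile over the arrays almost exactly. By a limit chosen after the values were seen, a Pearson r of at least 0.99 over the 12 arrays, 12 of the 85 called loci with a value on every array fell into 5 groups. Counting each group once leaves 80 of the 87. Another locus at this r existed for 17 of the 85 (20%) and for 9.28% of the 22182 tested loci with a value on every array. The group of 4 is Os05g0128900, Os05g0153500, Os08g0414700 and Os12g0505800, on 3 chromosomes. Os07g0421900 and Os11g0311600 form another, with r of 0.998. The probe sequences are not used here, so whether such probes detect 1 transcript was not tested.

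The 4 loci rose in both genotypes, and more in Goda Heenati. Os08g0414700 had levels of 1.02, 0.82 and 0.22 in FR13A controls and 2.06, 2.49 and 1.57 in submerged FR13A. In Goda Heenati its levels were -3.10, -2.56 and -3.84 in controls and 1.23, 1.17 and 0.08 under water. Controls of the genotypes were far apart and submerged leaves were close. The 4 loci had responses of 1.35 to 1.68 in FR13A and 4.00 to 4.24 in Goda Heenati. FR13A was 3.42 to 3.86 higher in controls and 0.84 to 1.21 higher under water, all on the log2 scale. The differences were -2.65 ± 0.27, -2.59 ± 0.33, -2.55 ± 0.32 and -2.53 ± 0.38 for Os08g0414700, Os12g0505800, Os05g0153500 and Os05g0128900 (limma adjusted p from 0.0122 to 0.0433). Without the block none of the 4 was called (limma adjusted p from 0.199 to 0.397), and over all 27 alternative settings their calls were lost in 7 to 19.

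**Figure D3:**
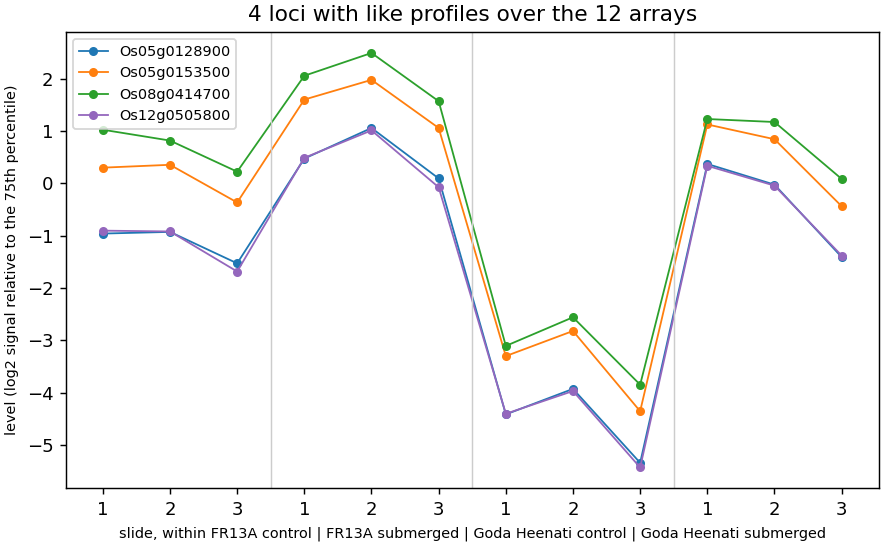
Levels (log2 signal minus the array's 75th percentile) of 4 called loci on the 12 arrays, ordered by group and slide along the x axis. The lines run in parallel, lowest in Goda Heenati controls, with a smaller step between FR13A controls and submerged FR13A.

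A set of 29 genes known from work on submergence was described whatever its values. In the difference 0 of 29 were called by limma, which at 0.383% over all loci is near the background and no result about the set. At an unadjusted limma p under 0.05 there were 4 of the 29, against 8.32% of all loci. GA2ox1, among these 4, entered the test through submerged FR13A alone. Names rest on general knowledge. The reference table held 21 of the 29 on the chromosome of the locus and in matching order. It did not hold ALDH2A, LDH, AlaAT1, GA2ox1, SUB1B, SUB1C and PR1B, whose names should be read with their loci, nor a name for Os11g0499600, which is given by locus. Both responses were called at 16 of the 29, all as rises, where 19.9% of all loci responded in both genotypes in the same direction. Only the Goda Heenati response was called at 6 of the 29 and only the FR13A response at 3. Over all loci only the Goda Heenati response was called at 3.73% as a rise and at 3.13% as a fall. For only the FR13A response these shares were 4.55% and 3.74%. The difference was under 1 in size at 21 of the 29 and at least 1 at the other 8, against 10.05% of all loci at 1 or more. Its median size was 0.32 on the log2 scale. The 95% interval lay within 1 either way at 6 of the 29 with 3 arrays per group. At the others a 2-fold difference in at least one direction lay inside the interval or beyond it.

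The fermentation genes ADH1, ADH2, PDC1, PDC2 and ALDH2A rose in both genotypes. The alcohol dehydrogenase gene ADH2 (Os11g0210500) had levels from -9.63 to -8.28 on the control arrays, none of them well above background. It reached 2.64, 2.67 and 0.71 in submerged FR13A and 2.40, 3.52 and 1.89 in submerged Goda Heenati. The submerged groups overlapped. ADH2 rose at least 1117-fold in FR13A and at least 1776-fold in Goda Heenati. Both rises are bounds, so the fitted difference of -0.17 is not a measure of how far they differ. ADH1 (Os11g0210300) had a difference of 0.32 (-1.97 to 2.61). For the pyruvate decarboxylases PDC1 (Os05g0469600) and PDC2 (Os03g0293500) it was 0.18 (-1.68 to 2.03) and -0.28 (-2.17 to 1.61). The 4 kept probes of PDC1 ranged from 0.18 to 1.71, and the brightest one, used here, was the lowest of them. ADH1 and PDC2 were saturated on the submerged arrays of slide 1, where their responses were smaller. PDC1, which was not saturated, also had its smallest responses there, 0.48 in FR13A and 0.96 in Goda Heenati. ALDH2A (Os02g0730000), an aldehyde dehydrogenase, had 0.95 (-0.45 to 2.34). LDH (Os02g0105400), a lactate dehydrogenase, had -1.25 (-2.65 to 0.15), with only the Goda Heenati response called, at 2.27. AlaAT1 (Os10g0390500), an alanine aminotransferase, had -0.38 (-0.95 to 0.20).

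SUS1 (Os03g0401300), a sucrose synthase that starts sucrose breakdown, came nearest to a call in the set. Its levels were -2.69, -1.97 and -3.39 in FR13A controls and 0.68, 1.03 and -0.45 in submerged FR13A. In Goda Heenati they were -3.01, -2.02 and -3.48 in controls and 1.24, 2.16 and 0.93 under water. It rose in both genotypes, by 3.11 and 4.27, and on each slide the Goda Heenati rise was the larger. The difference was -1.17 ± 0.25 (95% interval -1.75 to -0.59), which did not pass (limma adjusted p = 0.119, or 0.9999 without the block). The 7 kept probes of SUS1 ranged from -1.48 to -0.15. SUS4 (Os03g0340500), saturated on both submerged arrays of slide 1, had 0.02 (-0.98 to 1.01). RAmy3D (Os08g0473900), an alpha-amylase induced by sugar starvation, had -1.43 (-3.82 to 0.97). Only 1 of its 3 control arrays in each genotype was well above background, and only its Goda Heenati response was called. CIPK15 (Os11g0113700), a kinase that links oxygen shortage to sugar signalling, had 0.04 (-1.55 to 1.62).

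Of the gibberellin genes, 4 had differences under 1 in size and GA2ox1 had a large one that did not pass. GA20ox2 (Os01g0883800), a synthesis enzyme, rose by 4.72 and 4.51 and had a difference of 0.21 (-1.81 to 2.24). GID1 (Os05g0407500), the receptor, had 0.18 (-0.79 to 1.15). The growth repressor SLR1 (Os03g0707600) had -0.28 (-0.82 to 0.25) and its relative SLRL1 (Os01g0646300) -0.19 (-0.78 to 0.40). GA2ox1 (Os05g0158600), an enzyme that inactivates gibberellin, was well above background in submerged FR13A alone, at -4.32, -4.72 and -6.94. In submerged Goda Heenati its levels were -7.08, -7.64 and -10.19. Submerged FR13A was at least 5.20-fold higher than submerged Goda Heenati. The locus entered the test through submerged FR13A alone, so that gap was built in. The fitted difference between the responses, 3.27 ± 0.87 (limma adjusted p = 0.229), rests on 3 groups with no array well above background.

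Among the ethylene genes ACO1 (Os09g0451400), which makes ethylene from its precursor, set the genotypes apart in controls. Its levels were -7.08, -5.99 and -5.21 in FR13A controls and -0.35, -0.41 and -1.14 in Goda Heenati controls. Under water they were -7.24, -7.26 and -5.69 in FR13A and -4.99, -4.68 and -2.97 in Goda Heenati. All Goda Heenati arrays stood above all FR13A arrays. ACO1 fell by 3.58 in Goda Heenati, and in FR13A, where 3 of 6 arrays were well above background, the response was -0.64. The difference of 2.94 ± 0.74 (95% interval 1.26 to 4.63) did not pass (limma adjusted p = 0.198), and it passed without Goda Heenati control replicate 3, at 3.72 (limma adjusted p = 0.029). ACS1 (Os03g0727600), which makes the precursor, had -0.83 (-3.51 to 1.84). Only 1 of its 3 control arrays in each genotype was well above background. The signalling genes EIN2 (Os07g0155600) and EIL1 (Os03g0324200) had -0.12 (-0.63 to 0.39) and 0.20 (-0.65 to 1.05). EIL1 was saturated on 1 array.

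SUB1C (Os09g0286600) and SUB1B (Os09g0287000), ethylene response factors of the SUB1 cluster, rose in both genotypes. The fixed set held no other gene of that cluster, so these values do not stand for the whole SUB1 locus. SUB1C had levels of 2.77, 3.62 and 2.83 in submerged FR13A and 2.60, 3.63 and 2.96 in submerged Goda Heenati. These overlapped, and the difference between the responses was -0.32 (-1.32 to 0.68). SUB1C was saturated on both submerged arrays of slide 1. For SUB1B it was -0.49 (-2.0 to 1.01), and this locus was saturated on all 4 arrays of slide 1. SGR (Os09g0532000), which acts in chlorophyll breakdown, fell by 2.01 in FR13A and had a response of -0.44 in Goda Heenati. Its difference of -1.58 (-3.11 to -0.05) did not pass (limma adjusted p = 0.579) and was -0.55, -3.34 and -0.85 on the slides, so slide 2 carried most of it. SGR was saturated on 1 control array. NYC1 (Os01g0227100), a chlorophyll b reductase, had -0.35 (-1.90 to 1.21) and was saturated on both control arrays of slide 1.

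The remaining genes of the set gave no call either. AOS2 (Os03g0225900), an allene oxide synthase of jasmonate synthesis, had -0.98 (-3.27 to 1.32), and PR1B (Os01g0382000), a pathogenesis-related protein, had -1.07 (-2.54 to 0.40). HB1 (Os03g0233900), a haemoglobin, had -0.25 (-0.99 to 0.49). The actin gene ACT1 (Os03g0718100) had -0.21 (-0.80 to 0.39). Os11g0499600 had 1.45 (-0.13 to 3.03).

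**Figure D4:**
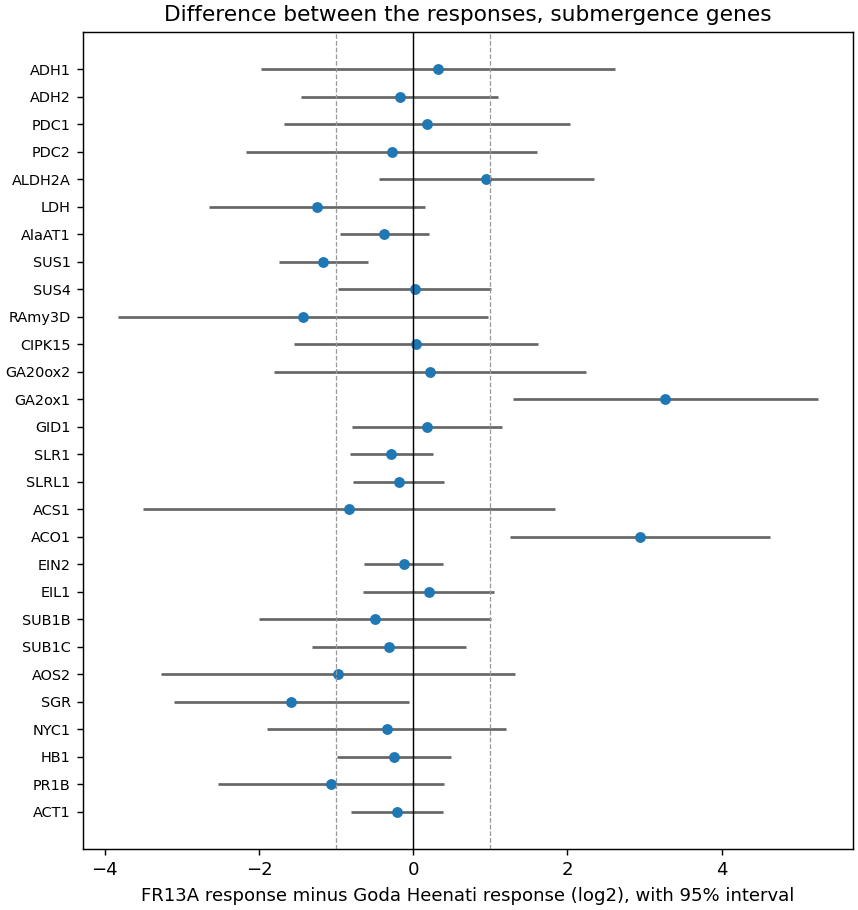
FR13A response minus Goda Heenati response (log2) of 28 genes of the fixed set that are given by name, as points with 95% intervals; dashed lines mark a 2-fold difference. The intervals of SUS1, GA2ox1, ACO1 and SGR leave out 0, ADH2 and GA2ox1 rest on groups below background, and no gene passed after adjustment over all loci.

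Lists of pathway genes were described in the same way. Of 230 names whose chromosome and order matched the reference table, 207 were measured, in 34 lists, and 0 were called, again near the 0.383% of all loci. At an unadjusted p under 0.05 there were 21, against 8.32% of all loci. The smallest limma adjusted p among them was 0.0768, and a difference of at least 1 in size stood at 37 of 207 (17.9%), against 10.05% of all loci tested. IRT2 (Os03g0667300), an iron transporter gene, had -1.52 ± 0.29 (limma adjusted p = 0.0768, or 0.9999 without the block). It was well above background on all 6 Goda Heenati arrays and on 0 of the FR13A arrays, so its FR13A response was not measured. TIP1;2 (Os01g0975900), a vacuolar aquaporin, had -1.54 ± 0.31 (limma adjusted p = 0.1). IRT2, TIP1;2 and the list members named in the next paragraph were chosen after their values were seen. Its levels went from 2.42, 2.48 and 3.68 to -6.11, -5.54 and -4.50 in FR13A and from 1.47, 1.81 and 3.06 to -4.96, -4.54 and -4.27 in Goda Heenati. TIP1;2 fell in both genotypes, with responses of -8.24 in FR13A and -6.71 in Goda Heenati. Its difference passed without Goda Heenati submerged replicate 3, at -1.82 (limma adjusted p = 0.0276). It did not pass without the block (limma adjusted p = 0.9999).

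Over all loci the median difference was -0.02 and 47.8% of loci lay above 0. In the 20 lists with at least 5 measured members the median ran from -1.45 for the diterpenoid list to 0.96 for ERF and DREB factors. It was -1.02 for iron, 0.47 for Aux/IAA and 0.65 for cell wall genes. The 5 measured members of the ERF and DREB list were DREB genes alone, with a median SE of 0.93. SUB1B and SUB1C, which the reference table did not hold, were not among them. The diterpenoid and Aux/IAA lists are described after their values were seen. The diterpenoid list holds genes of phytoalexin and related diterpene synthesis, clustered on chromosomes 2 and 4. Of its 9 measured members a rise was called at 6 in Goda Heenati and at 1 in FR13A, against 12.2% and 13% of all loci. A difference below 0 stood at 8, and the median was -1.45. Uncalled FR13A responses were above 0 at CYP99A2 (2.29), CPS4 (2.12), CYP99A3 (1.27) and KSL7 (0.94), and -0.14 at KSL6. The counts of called rises therefore do not show a rise in Goda Heenati alone. CPS2 (Os02g0571100), a diterpene cyclase, had levels of -1.51, -1.41 and -1.87 in Goda Heenati controls and -0.03, 1.98 and 0.60 under water. In FR13A it had -1.82, -1.75 and 0.51 in controls and -0.02, -1.25 and -0.29 under water. It rose by 2.44 in Goda Heenati with a response of 0.50 in FR13A, where 1 control array stood above the submerged ones. CYP71Z7 (Os02g0570700), a cytochrome P450, rose by 3.18 in Goda Heenati and had a response of 1.1 in FR13A. The slides disagreed on its difference, which was 1.04, -3.28 and -4.01. KSL5 (Os02g0571300), a diterpene synthase, fell in FR13A. It had the difference of largest size in the list, -3.90 (95% interval -6.42 to -1.39, limma adjusted p = 0.278). Only 1 of 3 submerged FR13A arrays and 2 of 3 submerged Goda Heenati arrays were well above background for KSL5. No member of the list was called, and the median SE of the list, 1.1, was above that of all loci, 0.35. Of 18 Aux/IAA genes, repressors of auxin signalling, 16 had a difference above 0, with a median of 0.47. IAA30 (Os12g0601300) had 2.24 ± 0.62 (limma adjusted p = 0.264). Members of a list share arrays and, in the diterpenoid clusters, neighbouring positions, so they are not independent of each other.

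**Figure D5:**
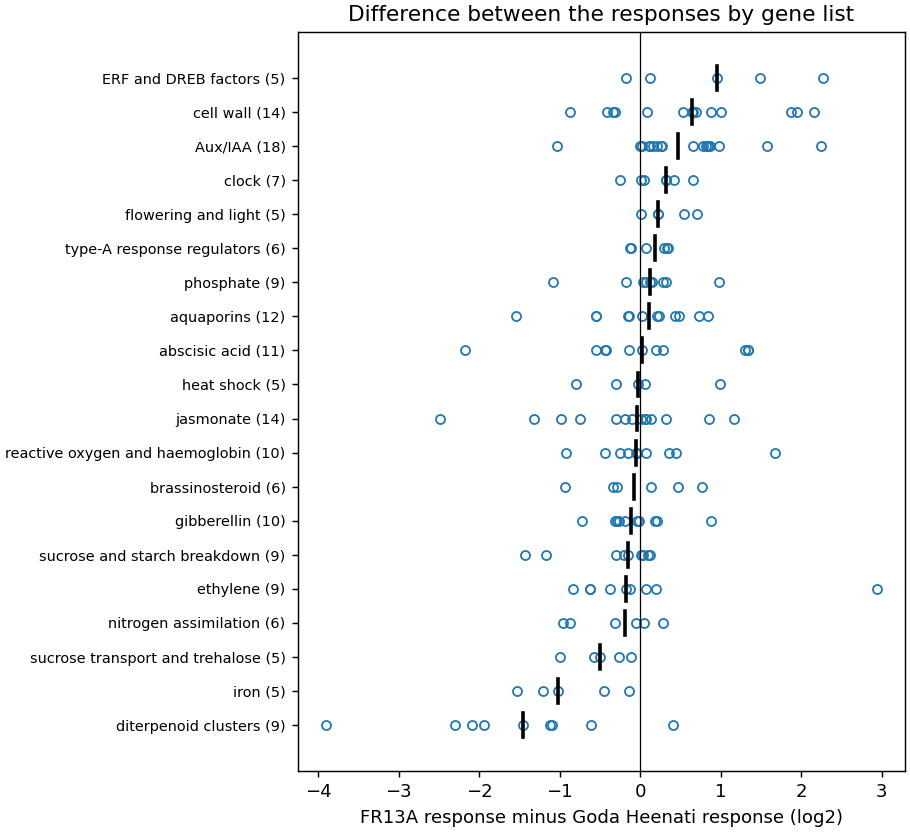
FR13A response minus Goda Heenati response (log2) of each measured gene in the lists with at least 5 members (number in brackets), as circles, with the list median as a bar. No gene shown was called. The diterpenoid list has the lowest median and the list of ERF and DREB factors, here 5 DREB genes alone, the highest.

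Differences were also set side by side between slides. Across 22182 loci with a value on every array, the difference measured on one slide correlated with that on another at r = 0.43 for slides 1 and 2, 0.36 for 1 and 3 and 0.55 for 2 and 3. Loci are not independent replicates, and each slide holds its own arrays. The responses correlated between slides at r from 0.72 to 0.84. The median SE of the difference was 0.35 with the block and 0.51 without it.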

How the data were processed

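The 12 samples were read on one-colour (Cy3) Agilent rice arrays. Spot brightness was deposited as linear intensity, read with Agilent Feature Extraction 10.5.1.1 per the submitters' processing notes, and the processed signal is background-subtracted per the file headers. A value table that the authors deposited, in log2 units, has columns of 1 shared distribution (median 10.02 in each). It served as an alternative, with its normalization step not given in the sources used here.

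Of 45151 spots per array, control spots and outlier flags were left out, which left 42418 probes. Each array's 75th percentile of the log2 processed signal was subtracted, and repeated spots were averaged. Kept were the 33071 probes that rose well above background on every array of some group, and the brightest one represented its locus, taken from the probe name (145 of 22744 are probes with no locus). Saturated spots were kept, which can shrink differences of bright loci.

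One limma 3.58.1 fit (R 4.3.3) held 4 group means and the slide as a block, with 6 residual degrees of freedom. Each contrast used all 12 arrays; 562 loci lacked at least 1 array. Benjamini-Hochberg adjustment ran over all loci, and a call needed an adjusted p under 0.05 and a difference of at least 1 (log2). The slide equals the replicate number in the titles. Same-numbered arrays deviated together from their group means in all 18 pairs (r from 0.261 to 0.787), against -0.552 to 0.031 in the 36 other pairs. Deviations within a group sum to 0, so the second range follows in part from the first. At least N-fold marks a group with no array well above background: the brighter group's mean is set against the higher, per array, of the probe's own signal and the dimmest one that is well above background. The number of arrays limits the precision.

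Named were a fixed set of 29 genes, list genes that were called (0), and the 2 called loci per direction with the smallest adjusted p among those well above background on every array; the exceptions are marked. The reference table (ASM3414082v1) holds no locus of the files. Of 340 name and locus pairs written from general knowledge, it placed 230 on the right chromosome and in order, which does not establish a pair; it did not hold 102, and 8 were misplaced and left out of the lists. The members and lists were chosen with earlier results of these data known. The fit was tested on simulated data. The planned normexp correction used the median signal and median background, since the files used here hold no mean signal. Other alternatives changed the scaling, the filters, the block, the variance prior and the probes, and left out slides and arrays.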

Additional observations from a re-analysis of the deposited data

Results flagged for a closer look

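The test of the difference between the genotypes' responses passed at 87 loci, and the 15 of them described by identifier are given here with that difference (FR13A response minus Goda Heenati response, log2). All were picked out because the limma test of the difference itself passed, in data where 0.383% of loci did so. The response was higher in FR13A for Os07g0293000 (4.08), Os01g0778600 (3.85), Os11g0490600 (3.68) and Os01g0217500 (2.88). It was lower in FR13A for Os11g0694100 (-6.21), Os11g0694000 (-5.31), Os12g0202700 (-5.18), Os07g0421900 (-4.94), Os11g0311600 (-4.85), Os09g0269900 (-4.71) and Os12g0202800 (-4.38). The 4 loci with like profiles were lower by similar amounts, Os08g0414700 (-2.65), Os12g0505800 (-2.59), Os05g0153500 (-2.55) and Os05g0128900 (-2.53). Groups of 3 arrays were not tested for single arrays that stand apart.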

How the results depend on the processing

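With 3 arrays per group the number of loci called moved with most settings. The 87 loci (39 higher, 48 lower) became 21 (9 and 12) with no replicate block and 172 (80 and 92) with the replicate block as a random effect (limma's duplicateCorrelation). Quantile normalization, the array median, the authors' deposited value table, saturated spots left out and the mean over probes gave between 78 and 101. Probes well above background on all 12 arrays alone gave 14 (4 and 10). Without the filter on dim probes 60 were called, with 20 higher, and with a trend in the variance prior 63, with 24 higher. Leaving out a slide or an array gave 0 to 101 calls, with 0 to 36 higher and 0 to 65 lower. Normexp correction gave 0 calls by limma, with 554 loci at an unadjusted p under 0.05, and cut the calls of the responses to 2893 in FR13A and 2651 in Goda Heenati; on FR13A submerged replicate 2 it compressed the values. Without that array, a setting chosen after seeing the data, it gave 5 (3 and 2). Counting like profiles once, also chosen then, gave 80. Under normexp 79 of 87 differences kept their sign. The calls have the same sign on every slide where complete, so signs kept when arrays were left out are no test. IRT2 and TIP1;2, not called, turned to 1.14 and 0.30 under normexp. No named gene of the fixed set was called under these settings except ACO1, as given above.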
